A study of Mus musculus with 16 samples.

Results

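The genes described here are 8 neural progenitor genes, Nes, Fabp7, Pax6, Zic1, Zic2, Olig2, Otx2 and Neurog2, which are known targets of Sox proteins and of the POU factors of the nervous system. They were named as a list, and their members are all ChIP-seq peak summits within each gene body and 50 kb to either side, by the GENCODE M21 gene models on mm10. This gave 90 of the 227116 summits in the 13 ChIP libraries (0.0396%), which merged into 61 sites of 172804 when summits within 100 bp of the next were joined. The loci were 102497 to 128465 bp long, against a median of 117425 bp over the loci of all 21938 protein-coding genes.

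All cells were OG2 MEFs, embryonic mouse fibroblasts (E13.5) with a GFP transgene driven by the Oct4 promoter. Every culture received retroviruses for Sox2 and Klf4 (SK) plus 1 POU factor and was moved to iCD1, a chemically defined reprogramming medium, on day 0. The Oct4 antibody was used on Oct4-SK cells at days 1, 5 and 7, on Oct4defSox2-SK cells at days 1 and 5 and on Oct4 S151M-SK cells at day 1. Oct4defSox2 carries substitutions (I21Y/D29R) that weaken pairing with Sox2 on DNA, and S151M gives Oct4 the residue of Oct6 at a position that governs homodimer formation. The Sox2 antibody was used at days 1 and 5 on the Oct4-SK, Oct4defSox2-SK and Oct6-SK cultures, and the Oct6 antibody on Oct6 M151S-SK cells, whose title says day 1 while another label says day 2. Wild-type Oct6 ChIP and the 3 input samples were not analysed here. Each group was 1 library, so there was no replicate and no test, and all intervals are Wilson 95% intervals that cover counting error only. The libraries held 1038 to 101170 summits, and the Oct4 day 7 library was sequenced with shorter reads per the methods.

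As background, Sox and POU factors bind DNA side by side in neural progenitors, where Sox2 and the POU factors of the nervous system, Oct6 among them, act on common enhancers. The second intron of Nes holds a well-known enhancer of this kind. Oct4 and Sox2 form a heterodimer on the composite SoxOct element in pluripotent cells, while POU homodimers form on the palindromic MORE element and on its spaced form MORE+1. The SoxOct, MORE and MORE+1 elements are named here without their letters.

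The sequences below are the 200-base windows around the sites bound in 3 or more libraries that touch no UTR, since these are the most shared sites that can be shown. They lie at Nes, Fabp7, Pax6 and Zic1, and shared sites in UTRs, at Zic1 -21.0 kb and Neurog2 +2.1 kb, are not shown. They are from the GRCm38 genome (mm10), plus strand, 5′ to 3′. Capitals mark a match to SoxOct (up to 2 mismatches) or MORE (up to 1 mismatch), and windows with no capitals held none of the POU or Sox matches searched.

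Pax6 +71.5 kb (chr2:105740319-105740518): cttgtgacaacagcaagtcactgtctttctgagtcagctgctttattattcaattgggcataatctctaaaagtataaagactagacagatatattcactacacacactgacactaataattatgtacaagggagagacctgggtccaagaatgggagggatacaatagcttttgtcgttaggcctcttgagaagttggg

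Nes +3.5 kb (chr3:87974436-87974635): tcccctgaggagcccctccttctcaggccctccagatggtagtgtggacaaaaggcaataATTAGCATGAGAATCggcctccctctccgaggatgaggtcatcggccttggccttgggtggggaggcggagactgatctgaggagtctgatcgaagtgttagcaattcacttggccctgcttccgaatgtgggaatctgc

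Zic1 +10.0 kb (chr9:91355724-91355923): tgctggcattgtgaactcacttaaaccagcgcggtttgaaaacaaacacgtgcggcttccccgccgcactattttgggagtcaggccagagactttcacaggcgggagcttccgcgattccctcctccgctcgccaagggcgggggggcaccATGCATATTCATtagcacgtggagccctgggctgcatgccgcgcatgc

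Fabp7 -21.6 kb (chr10:57763138-57763337): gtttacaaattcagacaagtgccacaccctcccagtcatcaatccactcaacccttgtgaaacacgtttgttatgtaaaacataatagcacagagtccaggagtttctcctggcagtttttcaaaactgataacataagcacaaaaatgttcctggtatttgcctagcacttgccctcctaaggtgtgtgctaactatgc

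Fabp7 +29.6 kb (chr10:57814405-57814604): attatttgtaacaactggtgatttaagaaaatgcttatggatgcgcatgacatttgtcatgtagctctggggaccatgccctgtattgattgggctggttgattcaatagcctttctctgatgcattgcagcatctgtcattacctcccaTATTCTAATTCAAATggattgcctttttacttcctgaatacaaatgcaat

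Pax6 +59.1 kb (chr2:105727897-105728096): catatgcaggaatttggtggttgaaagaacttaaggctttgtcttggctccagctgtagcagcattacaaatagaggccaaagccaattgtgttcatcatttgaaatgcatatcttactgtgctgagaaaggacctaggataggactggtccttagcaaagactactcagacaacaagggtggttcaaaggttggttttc

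Fabp7 -40.8 kb (chr10:57743957-57744156): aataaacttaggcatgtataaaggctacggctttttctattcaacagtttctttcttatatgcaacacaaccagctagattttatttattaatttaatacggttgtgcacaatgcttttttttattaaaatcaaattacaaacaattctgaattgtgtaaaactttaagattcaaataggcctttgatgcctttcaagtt

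In the Nes window the capitals are a SoxOct match on the minus strand, in the Zic1 window a MORE with 0 mismatches to the degenerate form searched, which allows either of a pair of bases at some positions, and in the Fabp7 +29.6 kb window a SoxOct match on the plus strand. Distances are from the 5′ end of the gene model, in the direction of transcription.

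By factor, the 90 summits comprised 8 of wild-type Oct4, 13 of Oct4defSox2, 32 of Oct4 S151M, 15 of Oct6 M151S and 22 of Sox2. Fabp7 had the most summits (20) and Olig2 the fewest (4), with 16 at Pax6, 13 at Neurog2, 11 each at Nes and Zic2, 10 at Zic1 and 5 at Otx2. The mean per member locus over all libraries was 11.2 summits and the median 11, against a mean of 13.7 and a median of 10 over all coding loci. Among coding genes no longer than the longest member, a comparison chosen after the data were seen, the median was 8.

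**Figure D1:**
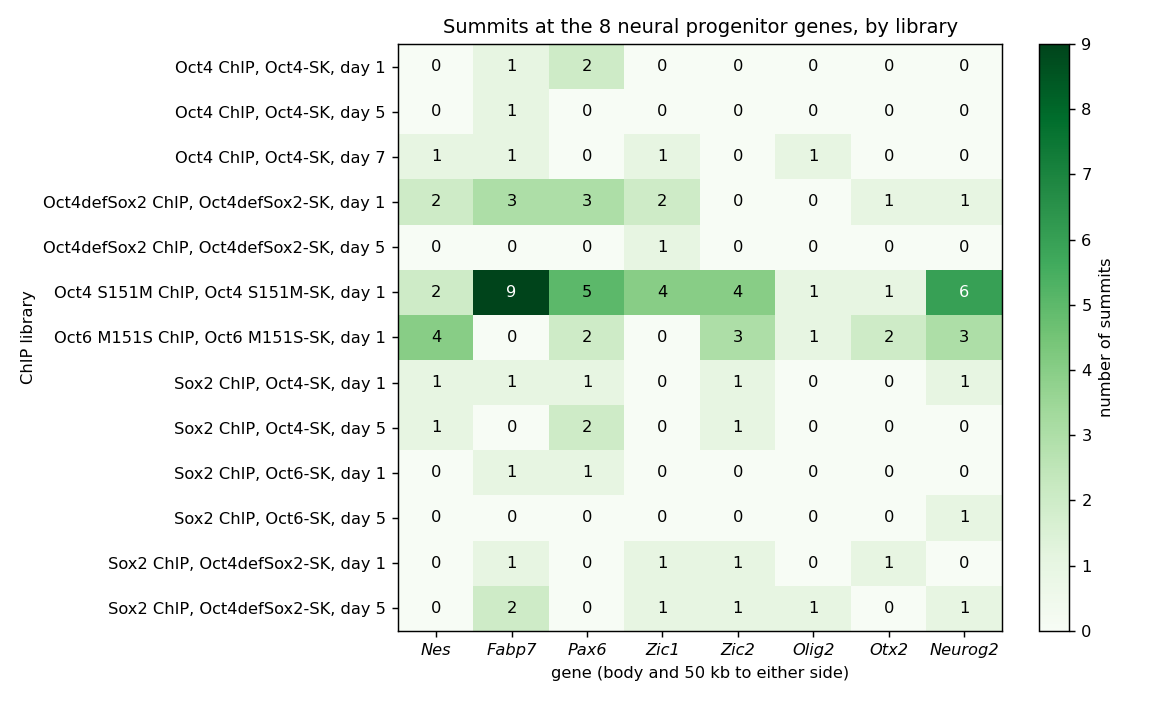
Number of summits at each gene (columns, gene body and 50 kb to either side) in each ChIP library (rows), 1 library per row. Oct4 S151M had summits at all 8 genes, with 9 at Fabp7, and the Oct4defSox2 day 5 library had 1, at Zic1.

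Wild-type Oct4 had called summits at Fabp7 on all days, at Pax6 at day 1 alone, and at Nes, Zic1 and Olig2 at day 7 alone. At Fabp7 the day 1 summit was at the +29.6 kb site, and those of days 5 and 7 were at the -21.6 kb site. Signal where no summit was called was not examined. At day 1 Oct4 had 3 summits, at Fabp7 and Pax6, so 2 of 8 loci were bound (25%, 7.15 to 59.1) beside 29.8% of all coding loci. At day 5 it had 1 summit, at Fabp7, beside 25.4% of all coding loci. With loci of 25 kb to either side the day 1 count was 0, and no share of all coding loci is given for that setting. At day 7 Oct4 had 4 summits, 1 each at Nes, Fabp7, Zic1 and Olig2. Thus 4 of 8 loci were bound (50%, 21.5 to 78.5) beside 19% of all coding loci.

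The number of summits of the Oct4 mutants followed the size of their libraries. Oct4defSox2 bound 6 of 8 loci at day 1 with 12 summits, beside 63.0% of all coding loci, and missed Zic2 and Olig2. At day 5 it had 1 summit, at Zic1, beside 6.62% of all coding loci in a library of 1038 summits. Oct4 S151M bound all 8 loci, beside 90% of all coding loci, from a library of 101170 summits. Oct6 M151S bound 6 of 8, beside 69.0%, and 0 with scores of at least 10, a cut for which no share of all coding loci is given.

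Sox2 was found at 5 of 8 loci in Oct4-SK cells at day 1 (Nes, Fabp7, Pax6, Zic2 and Neurog2, 1 summit each), beside 46.1% of all coding loci. At day 5 it had 4 summits at Nes, Pax6 and Zic2, beside 30.0%. In Oct6-SK cells it bound Fabp7 and Pax6 at day 1, beside 10.5%, and Neurog2 at day 5, beside 14.3%. In Oct4defSox2-SK cells it bound Fabp7, Zic1, Zic2 and Otx2 at day 1, beside 18.6%, and Fabp7, Zic1, Zic2, Olig2 and Neurog2 at day 5, beside 66.1%. Zic1, Olig2 and Otx2 had Sox2 summits in the Oct4defSox2-SK cocktail and in no other (3 of 8 loci, 37.5%, 13.7 to 69.4), beside 18.9% of all coding loci. These counts moved with the settings: Sox2 in Oct4-SK cells at day 1 bound 1 locus, not 5, with loci of 25 kb to either side or with scores of at least 10, and in Oct6-SK cells at day 1 it bound 0 under both. Sox2 in Oct4defSox2-SK cells bound 2 loci at day 1 and 3 at day 5 with scores of at least 10, and 3 at day 5 with loci of 25 kb. With loci of 100 kb, Sox2 bound 5 loci at day 5 in Oct4-SK cells and 2 in Oct6-SK cells, and the latter was 0 with scores of at least 10. No share of all coding loci is given for these settings, so whether other genes moved alike is not shown.

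**Figure D2:**
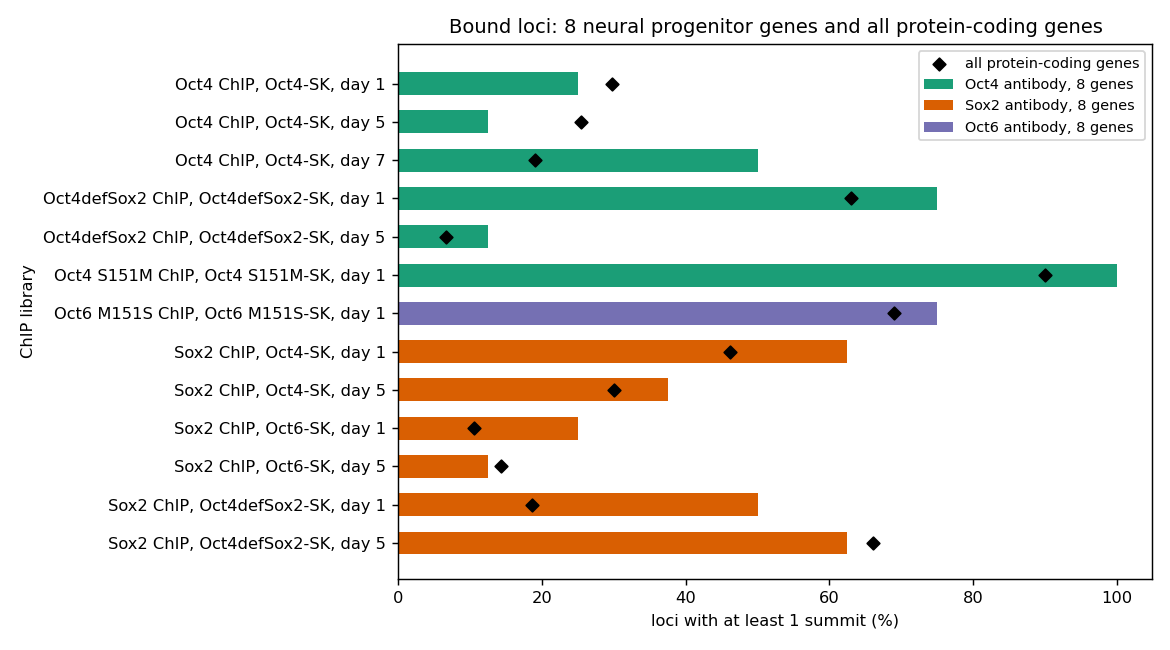
Share of loci with at least 1 summit (x axis, %) in each ChIP library (y axis), as bars for the 8 genes coloured by antibody and diamonds for all protein-coding genes. The Oct4 day 7 bar stands at 50% beside 19%, and the Oct4 day 5 bar at 12.5% beside 25.4%.

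Among coding genes no longer than the longest member, a comparison chosen after the data were seen, the share bound was lower in all 13 libraries, from 5.23% to 85.8%. It turned the direction in 3 of them: Oct4 at day 1 bound 25% of the members beside 29.8% of all coding loci but 21.6% of these, Sox2 in Oct6-SK cells at day 5 12.5% beside 14.3% but 9.9%, and Sox2 in Oct4defSox2-SK cells at day 5 62.5% beside 66.1% but 58.9%.

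Over all 13 libraries, 48 of 104 pairs of a locus and a library had a summit (46.2%), and the mean share over all coding loci was 37.6%. When each library was cut to its 1038 strongest summits, 7 pairs were left, and with scores of at least 10 there were 27. No share over all coding loci is given for either cut. A summit's score here is its MACS2 p-value as −log10, and it rises with depth.

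Summits of different libraries fell on the same sites at each locus but Olig2 and Otx2. Of the 61 sites, 13 had summits of at least 2 libraries (21.3%, 12.9 to 33.1), beside 15.8% of all sites. At least 4 libraries met at 6 sites (9.84%, 4.59 to 19.8), beside 3.86%. With scores of at least 10, 2 such sites remained in the count, and no share of all sites is given for that cut. Of the 61 sites, 40 lay over 10 kb from the member's 5′ end, in loci that are mostly farther than this by the way they were drawn, and 8 lay in a member's own body. By annotation, 29 sites were intergenic, 22 intronic, 5 in a UTR, 4 in coding sequence and 1 in a non-coding exon.

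**Figure D3:**
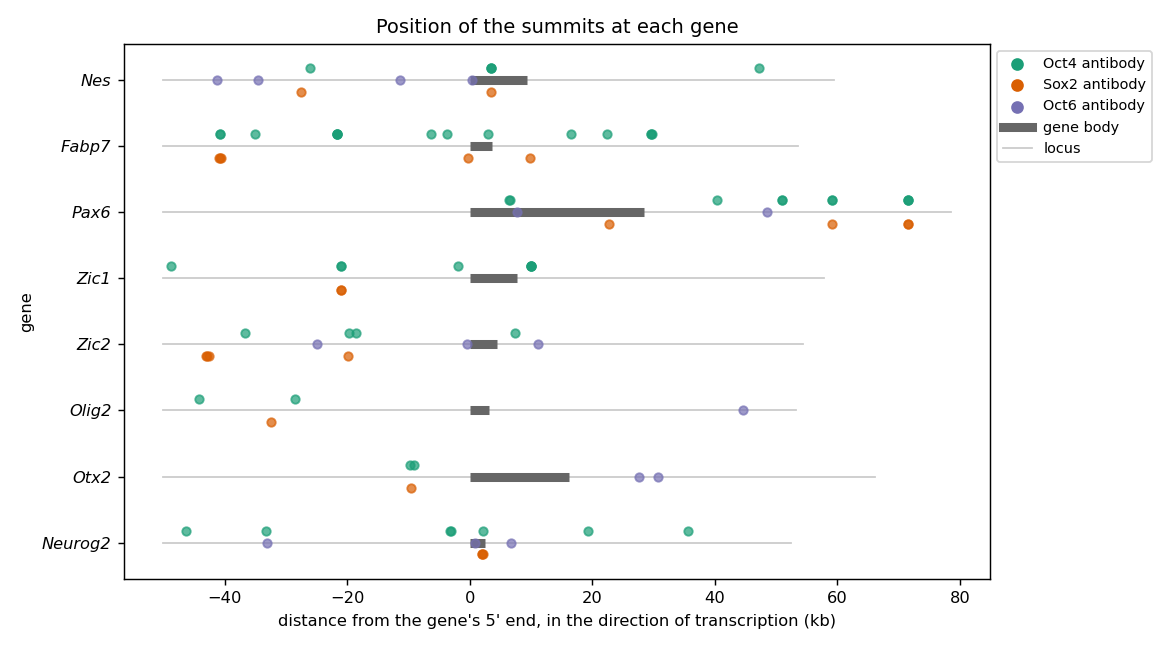
Position of every summit (points, coloured by antibody and offset vertically for clarity) relative to the 5′ end of each gene (x axis, kb, in the direction of transcription), with the gene body as a thick bar. At Pax6 most summits of the Oct4 and Sox2 antibodies lie downstream of the gene, up to 71.6 kb from its 5′ end.

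Nes encodes nestin, an intermediate filament protein of neural progenitors. Its most shared site lay 3.5 kb into the gene, in intron 2, with summits between positions 87974512 and 87974561 of chromosome 3. The summit scores there were 41.06 for Oct4 at day 7, 23.71 for Oct4 S151M, 16.04 for Oct4defSox2 at day 1 and 6.46 for Sox2 in Oct4-SK cells at day 5. The percentiles, the share of a library's summits with a lower score, were 96.2, 57.6, 68.5 and 26.1 in that order. Oct4 at day 7 thus ranked 140 of 3638, and neither the Oct4 day 1 nor the Oct4 day 5 library had a summit at Nes. This window holds the SoxOct match shown above, and whether it lies in the known enhancer was not examined. The other 7 Nes sites had 1 library each, and 4 of them were Oct6 M151S summits with scores of 3.27 to 5.31.

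Fabp7 encodes the brain lipid-binding protein of radial glia. Its site 29.6 kb downstream of the 5′ end, intergenic beyond Smpdl3a, had the strongest binding of the locus. Scores were 250.07 for Oct4 S151M, 51.88 for Oct4defSox2 at day 1 and 21.08 for Oct4 at day 1, at percentiles 96.9, 95.9 and 81.8. The summits spanned 112 bp, so the Oct4 and Oct4 S151M summits themselves fell just outside the 100 bp limit for sharing. At -21.6 kb, Oct4 was found at day 5 (score 9.12) and day 7 (10.15), with Oct4defSox2 at day 1 (12.79) and Oct4 S151M (21.54), and these were all near the middle of their libraries, at percentiles 46.7 to 57.0. At about -40.8 kb a pair of neighbouring sites held Sox2 of 3 cocktails at day 1, with scores of 5.31 in Oct4-SK, 9.29 in Oct6-SK and 7.22 in Oct4defSox2-SK cells, beside Oct4defSox2 (10.24) and Oct4 S151M (6.91). The remaining Fabp7 sites had 1 library each.

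Pax6 encodes a paired-box factor of forebrain and eye progenitors. Its most shared site, with summits of 5 libraries, lay 71.5 kb from the 5′ end in intron 9 of Elp4, the neighbouring gene whose introns are known to hold distal Pax6 enhancers. Scores were 44.94 for Oct4defSox2 at day 1, 24.58 for Oct4 S151M, 13.15 for Oct4 at day 1, and for Sox2 at day 1 23.93 in Oct4-SK and 8.8 in Oct6-SK cells. The Oct4-SK Sox2 summit ranked 394 of 15222, at percentile 97.3, and the Oct4defSox2 summit was at 94.6. None of the POU or Sox matches searched was in this window, which holds an AP-1 match. At 59.1 kb, also in Elp4, Oct4 at day 1 (13.37), Oct4 S151M (38.9) and Sox2 in Oct4-SK cells at day 5 (10.39) met. The highest Oct6 M151S score at the 8 loci, 6.38, was at 48.5 kb, also in Elp4. A site in the transcribed part of Pax6, at 6.5 kb, held an exact octamer (ATGCAAAT) with Oct4 S151M (20.27) and Oct4defSox2 at day 1 (8.59).

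Zic1 and Zic2 encode zinc finger factors of the dorsal neural tube, each beside a relative in the genome (Zic4 and Zic5). At Zic1 a site 10.0 kb past the 5′ end, intergenic on the downstream side, had Oct4 S151M at 164.59, Oct4defSox2 at 35.43 at day 1 and 12.77 at day 5, and Oct4 at 26.34 at day 7. The percentiles were 94.5, 91.6, 68.0 and 90.3. It was the only member site with a summit of Oct4defSox2 at day 5, and it holds the MORE match shown above. The Zic1 site at -21.0 kb, in a UTR of Zic4, held Sox2 in Oct4defSox2-SK cells at day 1 (11.21) and day 5 (12.38), Oct4defSox2 at day 1 (21.32) and Oct4 S151M (4.79). Another Zic1 site, at -1.9 kb, had Oct4 S151M alone (37.79) at a MORE match with 1 mismatch, ctgcatattcat.

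At Zic2 the 11 summits fell on 10 sites. The one shared site, at -43.0 kb, had Sox2 at day 5 in Oct4-SK (12.74) and Oct4defSox2-SK cells (11.6). Wild-type Oct4 and Oct4defSox2 had no summit at this locus. The highest score was 37.26, for Oct4 S151M in a UTR of Zic5.

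Olig2 encodes a bHLH factor of motor neuron and oligodendrocyte progenitors. Each of its 4 summits was a site of its own: Oct4 at day 7 (17.31, at -44.3 kb), Sox2 in Oct4defSox2-SK cells at day 5 (12.31), Oct4 S151M (24.72) and Oct6 M151S (3.27, in coding sequence of Olig1). The Oct4 S151M site, at -28.5 kb, held a MORE+1 match with 1 mismatch, ttgcattattcat.

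Otx2 encodes a homeodomain factor of the forebrain and midbrain. Its 5 summits were at 5 sites, and Sox2 in Oct4defSox2-SK cells at day 1 (10.31) and Oct4defSox2 at day 1 (19.1) were close neighbours at -9.6 and -9.7 kb, in introns of the non-coding gene Otx2os1. They stood more than 100 bp apart and were counted separately.

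Neurog2 encodes a proneural bHLH factor. Its shared site, at 2.1 kb in the UTR, had the highest score at any member locus, 348.84 for Oct4 S151M, ranked 1781 of 101170, and a fold enrichment of 59.66. Sox2 was found there in Oct4-SK cells at day 1 (9.8) and, at day 5, in Oct6-SK (6.09) and Oct4defSox2-SK cells (6.46). The summits spanned 250 bp, wider than at other shared sites. A summit of Oct4 S151M at -3.2 kb (98.0) had no partner within 100 bp.

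**Figure D4:**
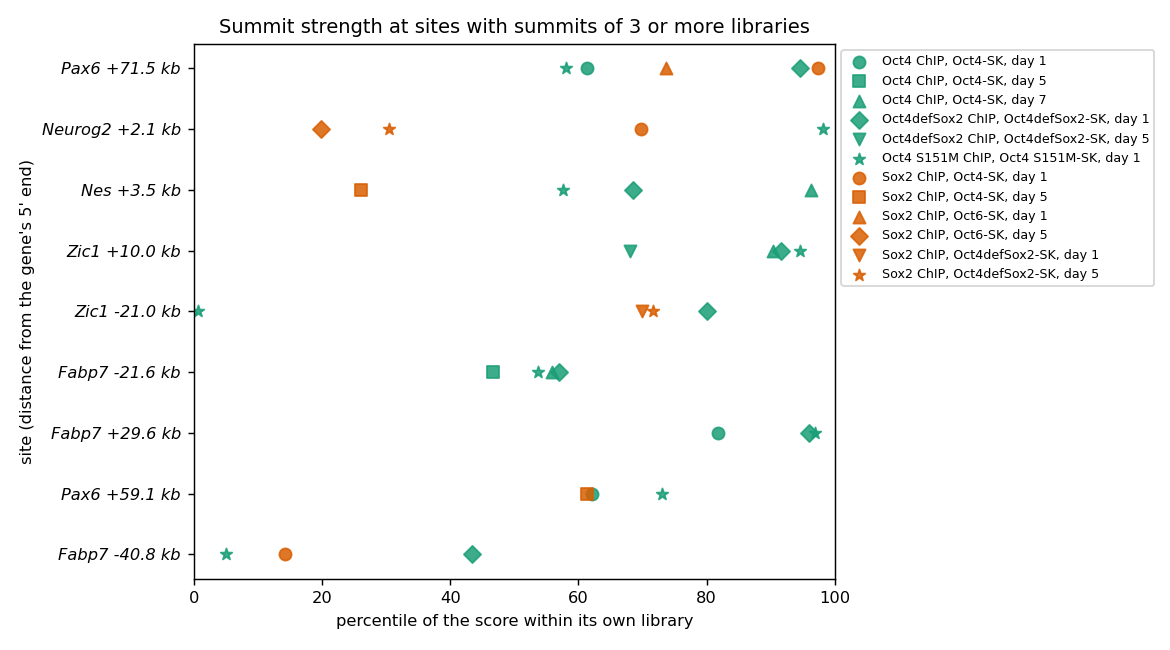
Percentile of each summit's score within its own library (x axis) at the sites with summits of 3 or more libraries (y axis, gene and distance from its 5′ end), with symbols for library and colours for antibody. At Zic1 +10.0 kb all 4 summits lie at percentile 68.0 or above, and at Zic1 -21.0 kb the Oct4 S151M summit is near 0.

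The sharing of Oct4 summits over time rested on very few summits at these loci. None of the 3 Oct4 day 1 summits had a day 5 summit within 100 bp (0%, 0 to 56.1), beside 24.5% of all day 1 summits, and none had a day 7 summit, beside 13.1%. Of the 4 day 7 summits, none matched day 1, beside 29.4%, and the Fabp7 one matched day 5 (25%, 4.56 to 69.9), beside 33.7%. The 1 day 5 summit, at Fabp7, was shared with day 7 (100%, 20.7 to 100), beside 25.2%. It had no day 1 summit within 100 bp (0%, 0 to 79.3), beside 41.5% of all day 5 summits. With loci of 100 kb to either side 1 of 5 day 5 summits was shared with day 7 (20%).

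The same Oct4 summits were also compared with the mutants. Of the 3 Oct4 day 1 summits, 2 were shared with Oct4defSox2 at day 1 (66.7%, 20.8 to 93.9), beside 57.4%, and 2 with Oct4 S151M, beside 78.2%. None was shared with Oct6 M151S, beside 8.39%. Of the 4 day 7 summits, those at Nes, Fabp7 and Zic1 were shared with both Oct4defSox2 at day 1, beside 41.8%, and Oct4 S151M, beside 52.3% (75%, 30.1 to 95.4, in each case). With the larger library of each pair cut to the size of the smaller, these shares were 25% and 0%, and the share of Oct4 day 1 summits with Oct4 S151M was 0%. Oct4defSox2 at day 1 shared 9 of its 12 summits with Oct4 S151M (75%, 46.8 to 91.1), beside 43.5% of all its summits, at Nes, Fabp7, Pax6 and Zic1. With Oct4 S151M cut to its 31070 strongest summits, the size of the Oct4defSox2 library, this fell to 16.7%, and at a distance of 50 bp it was 41.7%. Of the same 12, 1 matched Oct4defSox2 at day 5, beside 2.35%. Every share of all summits in this comparison with the mutants is for uncut libraries and a distance of 100 bp. None is given for the other settings, so the values under those settings have no like background.

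Co-binding with Sox2 was seen at single sites. The Pax6 +71.5 kb site was the 1 of 3 Oct4 day 1 summits with a Sox2 summit in the same cells (33.3%, 6.15 to 79.2), beside 19.8%. The Zic1 -21.0 kb site was the 1 of 12 Oct4defSox2 day 1 summits with Sox2 in the same cells (8.33%, 1.49 to 35.4), beside 8.73%. This share was 25% (3 of 12) at a distance of 250 bp and 0% at 50 bp, for which no share of all summits is given. The Nes intron 2 site was the 1 of 4 Oct4 day 7 summits with a Sox2 summit of Oct4-SK cells at day 5, beside 10.4%; Sox2 at day 7 was not analysed here.

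Of the 22 Sox2 summits, 11 lay within 100 bp of a Sox2 summit of another cocktail or day (50%, 30.7 to 69.3), beside 31.9% of all Sox2 summits. They made up 5 sites, at Fabp7 -40.7 kb, Pax6 +71.5 kb, Zic1 -21.0 kb, Zic2 -43.0 kb and Neurog2 +2.1 kb. Of the 5 in Oct4-SK cells at day 1, none was shared with day 5, beside 7.23%, or with Oct4defSox2-SK cells, beside 10.6%, and the Pax6 one was shared with Oct6-SK cells, beside 5.28%. Of the 4 in Oct4-SK cells at day 5, none was shared with Oct6-SK cells, beside 16.6%, and the Zic2 one was shared with Oct4defSox2-SK cells, beside 38.3%. In Oct4defSox2-SK cells the Zic1 summit was the 1 of 4 at day 1 that was also present at day 5, beside 32.7%. Between Oct4defSox2-SK and Oct6-SK cells, the Fabp7 summit was the 1 of 4 shared at day 1 (25%, 4.56 to 69.9), beside 12%, and the Neurog2 summit the 1 of 6 shared at day 5 (16.7%, 3.01 to 56.4), beside 6.5%.

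Of the 15 Oct6 M151S summits, 8 lay within 1 kb of an annotated start (53.3%, 30.1 to 75.2), beside 10.2% of all its summits, and for Oct4 S151M the number was 2 of 32 (6.25%, 1.73 to 20.1), beside 4.28%. The 8 were at the starts of Nes, Neurog2, Pax6, Rrnad1, Gm5089, 2610035F20Rik, Olig1 and Gm49151, the last a non-coding gene at Otx2. Of these 8, 3 scored below 4, and 2 (at Nes and Gm49151) had a q-value under 0.05. Over all factors, 12 of 61 sites lay within 1 kb of a start (19.7%, 11.6 to 31.3), beside 6.6% of all sites. Of these, 8 were sites of Oct6 M151S alone, and without such sites the share was 4 of 46 (8.7%, 3.43 to 20.3), beside 6.06%. Oct6 M151S was called at a looser threshold, with scores of 3.27 to 6.38 at these loci, 8 of 15 at 4 or more, and fold enrichments of 2.28 to 3.13. Its q-value was under 0.05 for 3 of 15, beside 21.2% of all its summits. For Oct4 S151M this held for 32 of 32, beside 100% of all its summits. The shares of all summits and all sites cover the whole genome, while each locus holds its member's start by the way it was drawn. What part the looser threshold and the drawing of the loci had in the share near starts was not tested.

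**Figure D5:**
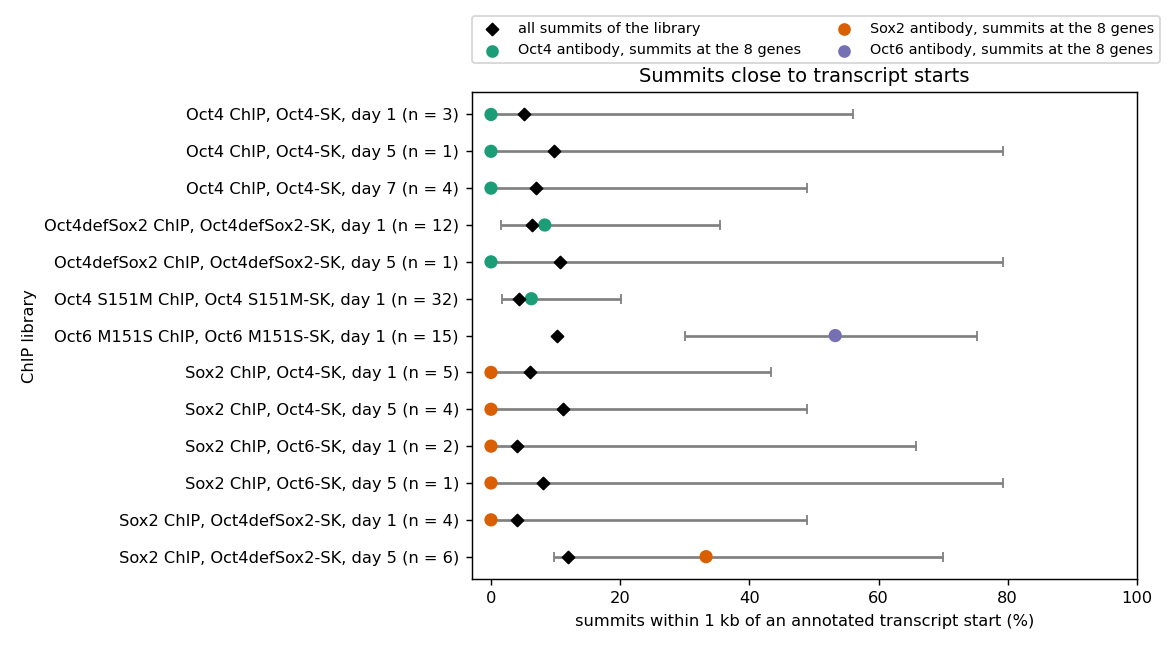
Share of summits within 1 kb of an annotated transcript start (x axis, %) in each library (y axis), as coloured points with Wilson 95% intervals for the 8 genes and black diamonds for all summits of the library. The Oct6 M151S point stands at 53.3% with its diamond at 10.2%, and the intervals of the other libraries hold their diamonds.

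Motif matches were few. SoxOct was found at 3 of 61 sites (4.92%, 1.69 to 13.5), beside 4.44% of all sites and 1.1% of windows 2 kb away, at Nes +3.5 kb and at Fabp7 -6.3 and +29.6 kb. MORE was found at 3 sites, beside 10.7% of all sites and 0.574% of windows 2 kb away, at Nes +47.2 kb and at Zic1 +10.0 and -1.9 kb, and MORE+1 at 3, beside 4.01%, at the Olig2 site and at 2 Zic2 sites. The octamer was at 1 site, beside 5.13%, and a Sox match (CCATTGT or CCTTTGT) at 3, beside 12.6%. The AP-1 motif (TGANTCA) was at 7 sites (11.5%), beside 12.6%, and the KLF motif (GGGNGTGGC) at 1, beside 1.31%. All were searched on both strands within 100 bp of the site centre, and MORE+1 differs from MORE by 1 spacer base, so a site can match both. Any of the 4 POU elements was at 10 of 61 sites (16.4%), beside 21.8% of all sites.

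Of 36 other neural genes on a list made for this comparison, the share bound was above that of all coding loci in 12 of 13 libraries, in several by little. Loci on the list ran up to 366792 bp, at Gli3, against a median of 117425 bp over all coding loci. No share among genes of like length and no intervals are given, so the tally does not show a preference for neural genes. For Oct4 it was 36.1% at day 1, 27.8% at day 5 and 33.3% at day 7, beside 29.8%, 25.4% and 19%. For Oct4defSox2 it was 63.9% at day 1 and 13.9% at day 5, beside 63.0% and 6.62%. Oct4 S151M bound 97.2% and Oct6 M151S 77.8%, beside 90% and 69.0%. Sox2 bound 47.2% and 33.3% in Oct4-SK cells at days 1 and 5, beside 46.1% and 30.0%, and 8.33% and 22.2% in Oct6-SK cells, beside 10.5% and 14.3%. In Oct4defSox2-SK cells it bound 33.3% and 69.4%, beside 18.6% and 66.1%. Zic4, Zic5 and Olig1 are on this list and share summits with Zic1, Zic2 and Olig2. The median gene of the list was bound in 5 libraries, the median member in 6 and the median coding gene in 5. Gli3, Cdh2, Pax3, Rfx4 and Dll1 were bound in 11 or 12 libraries, the first 4 over loci longer than any member's.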

How the data were processed

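Summits of 13 ChIP libraries were used. The authors aligned reads to mm10 with Bowtie2 2.2.5, removed duplicates and called summits with MACS2 for each library. The deposited scores are −log10 p-values that were not scaled to depth. The authors also deposited, for the S151M and M151S mutants, fold enrichment (a ratio to the local background) and −log10 q-values. The lowest score was 2.3 for Oct6 M151S and 4 to 4.12 elsewhere.

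Samples were grouped by title. Coordinates were checked against GRCm38, and 0 summits lay past a chromosome end. Summits within 100 bp were called shared or merged into 1 site. Motifs were matched within 100 bp of site centres, on both strands. Shares carry Wilson 95% intervals (scipy 1.17.1, Python 3.11.15). No p-value was computed, since each group had 1 library. Alternatives were loci of 25 or 100 kb, scores of at least 10, 1 summit per peak, equal numbers of summits, distances of 50 or 250 bp, and other motif settings. The sharing, locus and motif steps were tested on simulated data.

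The members and lists were chosen with earlier results of these data known. Sites were named by rule: the most shared site of each gene, sites of at least 4 libraries and the highest summit of each library. Other sites named were chosen after their values were seen. The 3 inputs were not analysed here.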

Additional observations from a re-analysis of the deposited data

Results flagged for a closer look

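The number of Sox2 summits at the 8 loci went in opposite directions between day 1 and day 5 under the main setting. With Oct4defSox2-SK it went from 4 to 6, up by 2, and it went from 5 to 4 in Oct4-SK cells (-1) and from 2 to 1 in Oct6-SK cells (-1). The opposite directions were lost with loci of 25 kb to either side, where the counts went from 3 to 4, from 1 to 2 and from 0 to 1 in the same order of cocktails, and with scores of at least 10, where they went from 2 to 3, from 1 to 2 and from 0 to 0. They were also lost without the Fabp7 locus, where the counts went from 3 to 4, from 4 to 4 and from 1 to 1. The difference between cocktails was not tested, and each value is 1 library. Over the whole libraries the summits went from 5794 to 21563, from 15222 to 5832 and from 3242 to 2673 in the same order.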

How the results depend on the processing

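No paired analysis was possible because each group had 1 library. Of 439 values recomputed under the planned settings, 331 stayed within 1.5 times the main count or within the Wilson interval of the main share and 108 did not. Of the 331, 62 came from keeping 1 summit per peak and 15 from an Oct6 M151S score of at least 4. The Oct6 M151S setting cannot change the counts of other libraries. Wilson intervals on few summits are wide, so a large move can stay within them, and the total is not a measure of stability. With loci of 25 and 100 kb to either side there were 38 and 108 sites, and with scores of at least 10 there were 36 sites, 27 bound pairs and 2 sites of 4 or more libraries. With every library cut to its 1038 strongest summits these were 5, 7 and 0. Without sites of Oct6 M151S alone, 8.7% of sites lay within 1 kb of a start.

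The sharing shares between pairs of libraries printed below rest on 12 summits or fewer and moved most with equal numbers of summits, where the larger library of each pair was cut to the number of the smaller. Under that setting Oct4 day 1 and day 7 shared 0% with Oct4 S151M, Oct4 day 7 shared 25% with Oct4defSox2 at day 1 and 0% with Sox2 at day 5, and Oct4defSox2 at day 1 shared 16.7% with Oct4 S151M and 0% with Sox2. Sox2 in Oct4-SK cells at day 1 then shared 100% (1 of 1) with Oct6-SK cells, and 0% of Sox2 summits were shared between Oct4-SK and Oct4defSox2-SK cells at day 5 or between days in Oct4defSox2-SK cells, and 0% between Oct4defSox2-SK and Oct6-SK cells at day 1. The last was also 0% with loci of 25 kb, with scores of at least 10 and without Fabp7, and at day 5 it was 0% with scores of at least 10 and at 50 bp. At 50 bp, Oct4defSox2 at day 1 shared 41.7% with Oct4 S151M and 0% with Sox2, Oct4 day 1 shared 0% with Sox2, and Sox2 in Oct4defSox2-SK cells shared 0% between days. At 250 bp, or without the Fabp7 locus, Oct4 day 1 shared 100% with Oct4 S151M. Without Fabp7, Oct4 day 7 shared 0% with day 5. With loci of 25 kb, Oct4 day 7 shared 100% with Oct4 S151M and with Oct4defSox2 at day 1, and Sox2 in Oct4-SK cells shared 0% with Oct6-SK cells at day 1 and 0% with Oct4defSox2-SK cells at day 5. With scores of at least 10, Oct4 day 7 shared 0% with Oct4 day 5 and with Sox2, and Sox2 in Oct4-SK cells shared 0% with Oct6-SK cells at day 1.

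With 1 mismatch fewer SoxOct and MORE+1 were at 0% of sites and MORE at 1.64%, and with 1 more SoxOct was at 16.4% and MORE at 18%. Within 50 bp, MORE and Sox were each at 1.64% and the octamer at 0%. At the 5 sites left with equal numbers, SoxOct and MORE were each at 20% and MORE+1, Sox and the octamer at 0%. Where a setting left no summit at the loci in the library whose summits were being shared, there was no value. Keeping 1 summit per peak changed none of the values recomputed.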
